A study of Mus musculus with 6 samples.

Results

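Transcript levels of 10 genes of BMP signalling and the dorsal midline were followed in mouse tissue given as dentate neuroepithelium. The mice had 0, 1 or 2 floxed alleles of Sox11. The genes are the ligands Bmp4, Bmp6 and Bmp7, the type I receptors Bmpr1a and Bmpr1b, the target genes Id1, Id3, Msx1 and Msx2, and the roof plate regulator Lmx1a. They were taken by symbol from the deposited table, where each matched 1 of 35274 rows, and 10 of 10 passed the filter on low values, which kept genes averaging 1 TPM or more across the libraries. Dentate neuroepithelium is the part of the ventricular wall that gives rise to the dentate gyrus, and the mice were labelled embryonic day 14. The 3 genotypes were WT (wild type), SOX11f/+ (heterozygous for the floxed allele, labelled haplodeficient) and SOX11f/f (homozygous, labelled homodeficient), with 2 libraries each. The labels give no Cre line and do not say whether embryos were pooled or whether replicates are different embryos. The p-values therefore rest on the library-to-library spread alone, which may be technical.

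BMPs are secreted ligands that bind pairs of type I and type II receptors, which phosphorylate Smad1, Smad5 and Smad9. With Smad4 these enter the nucleus and switch on target genes, among them the Id and Msx genes. In the embryonic forebrain the roof plate and cortical hem at the dorsal midline secrete BMPs and Wnts. These sources lie next to the dentate neuroepithelium and also give rise to choroid plexus epithelium.

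Values are TPM, the share of transcripts scaled to a fixed library total, which are corrected for transcript length and can be compared between genes. Read depth cannot be recovered from this unit and is unknown, so no counting interval was computed. Between 18722 and 19408 genes per library were above 0 TPM. Sox11 itself stood at 191.93 and 130.18 TPM for WT, 56.1 and 50.07 for SOX11f/+ and 5.23 and 5.06 for SOX11f/f, and the homozygous difference from wild type passed (log2 difference -4.69, limma adjusted p = 0.00082). All 11 genes of the dentate neuroepithelium and granule lineage list (Sox2, Pax6, Emx2, Prox1 and others) were above 0 in every library, and their sum ran from 861.3 to 1437 TPM. Of these, 4 were lower without overlap in both floxed genotypes, though none passed in limma. The background shares lower without overlap, each for 1 comparison alone, were 28.9% and 30.7%. The 4 genes were the granule lineage genes Prox1 and Neurod1, the Wnt effector gene Lef1 and the hippocampal patterning gene Emx2, chosen after their values were seen. Log2 differences in heterozygous and homozygous libraries were -1.05 and -0.88 for Prox1, -0.84 and -0.86 for Neurod1, -0.79 and -0.84 for Lef1, and -0.60 and -0.52 for Emx2 (limma adjusted p from 0.15 to 0.28). Hes1 of the same list went the other way, higher without overlap in both floxed genotypes (0.42 and 0.54, limma adjusted p = 0.32 and 0.15). Sox2 was higher without overlap in homozygous libraries only (0.26, limma adjusted p = 0.41). The sum of 5 markers of mature excitatory neurons ran from 559.1 to 1432 TPM, which are genes of later stages than the labelled age. The sum of 8 astrocyte markers ran from 996.9 to 1575 TPM and was 1042 and 996.9 for WT. Among them Gfap stood at 303.91 and 268.11 TPM for WT. Whether the age and tissue given for these libraries hold was not tested. Choroid plexus markers were by far the highest in 2 libraries, and homozygous replicate 2 also stood above wild type. The sum of the 12 listed genes was 58.67 and 34.23 TPM for WT, 11810 and 50.02 for SOX11f/+ replicates 1 and 2, and 6761 and 317.5 for SOX11f/f replicates 1 and 2. In bulk tissue, fewer cells of a type and less RNA per cell cannot be told apart.

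The 10 genes covered a wide span of levels. By mean over the 6 libraries, Id3 (195.1 TPM) stood above Id1 (100.3 TPM), then Bmpr1a (39.27 TPM), Msx1 (16.27 TPM), Bmp7 (11.89 TPM), Bmp6 (11.55 TPM) and Bmpr1b (7.37 TPM). Lmx1a (3.44 TPM), Bmp4 (3.32 TPM) and Msx2 (1.46 TPM) were the lowest. The ranges of Id3 and Id1 touched no other gene's range, whereas from Bmpr1a downward each gene's range overlapped that of its neighbour in this order. The genes also differed in how far they varied. The highest library was 14.64 times the lowest for Msx1, 6.89 times for Lmx1a, 6.59 times for Bmp4, 4.93 times for Bmp6 and 3.96 times for Bmp7. For Msx2, Id1, Id3, Bmpr1b and Bmpr1a it was 2.28 times or less.

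**Figure D1:**
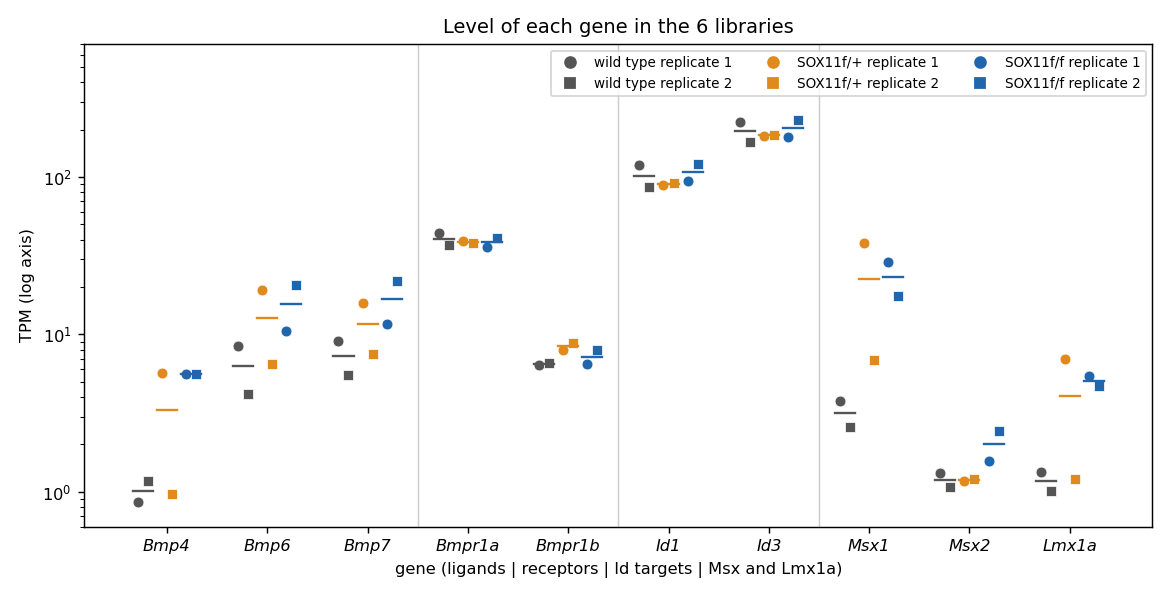
TPM of each gene on a log axis, with a point per library (circles replicate 1, squares replicate 2), colour by genotype and a short line at each genotype's mean. Heterozygous replicate 2 lies near wild type for Bmp4 and Lmx1a, while heterozygous replicate 1 lies with the homozygous libraries.

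Msx1, Lmx1a and Bmp4 varied together, so their promoters are shown. RefSeq's table on GRCm38.p6 held a promoter window for 8 of the 10 genes, and the 250 bases before the annotated start are printed, 5′ to 3′ on the gene's strand. They were searched on both strands for GGCGCC, a GC-rich Smad site, CAGAC, the Smad box, and CACGTG, a form of the E-box, none of which overlaps another here. Other forms of the E-box were not searched for. Capitals mark a match. The windows are chr5:37824586-37824835 on the minus strand for Msx1, chr1:167689308-167689557 on the plus strand for Lmx1a and chr14:46390670-46390919 on the minus strand for Bmp4. RefSeq places the start of Lmx1a downstream of the GENCODE gene start given with its values, so that window lies inside the GENCODE gene.
Msx1: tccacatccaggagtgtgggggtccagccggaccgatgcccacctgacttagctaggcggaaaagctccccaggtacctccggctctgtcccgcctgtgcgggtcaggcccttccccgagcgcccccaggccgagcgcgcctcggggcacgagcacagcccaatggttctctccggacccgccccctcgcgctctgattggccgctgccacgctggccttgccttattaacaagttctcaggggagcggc
Lmx1a: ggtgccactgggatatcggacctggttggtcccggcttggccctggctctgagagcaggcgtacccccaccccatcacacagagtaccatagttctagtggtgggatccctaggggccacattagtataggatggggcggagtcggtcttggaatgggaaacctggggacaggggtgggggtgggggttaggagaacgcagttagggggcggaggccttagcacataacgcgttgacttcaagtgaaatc
Bmp4: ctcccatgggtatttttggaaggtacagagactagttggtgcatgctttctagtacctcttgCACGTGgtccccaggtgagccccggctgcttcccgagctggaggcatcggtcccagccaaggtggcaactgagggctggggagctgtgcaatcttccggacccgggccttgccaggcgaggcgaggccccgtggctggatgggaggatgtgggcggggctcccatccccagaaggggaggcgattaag
The only match in these windows was 1 CACGTG in that of Bmp4, which begins 188 bases before the start. Of 32851 promoter windows of the same length, 6.02% held CACGTG, 9.59% GGCGCC and 42.2% CAGAC. A match or its absence describes only these letters in this window. The windows were rich in G and C, at 68.0% for Msx1, 59.2% for Lmx1a and 63.2% for Bmp4.

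Among the ligands, Bmp4, a dorsal midline BMP, had 2 distinct levels. Bmp4 (ENSMUSG00000021835.15) lies on chromosome 14, 46383520 to 46390669, minus strand (GRCm38, GENCODE annotation, as for all positions here). It stood at 0.86 and 1.18 TPM for WT, 5.67 and 0.97 for SOX11f/+ and 5.61 and 5.62 for SOX11f/f. Heterozygous replicate 1 and both homozygous libraries were high, heterozygous replicate 2 lay between the wild type libraries, and wild type and homozygous libraries did not overlap. On the log2(TPM + 1) scale, which understates the change of low genes, the homozygous difference from wild type was 1.72 (SE 0.53, limma adjusted p = 0.18), and the ratio of mean TPM was 5.51. The heterozygous difference was 0.85 (SE 0.53, limma adjusted p = 0.5). Without heterozygous replicate 1 it was -0.03, and without heterozygous replicate 2 it was 1.73 (limma adjusted p = 0.027). In such fits, here and for the genes that follow, the single heterozygous library has no spread of its own and is assumed to vary like the other genotypes. On the opposite strand Bmp4 overlaps Gm15217 and Gm15222, and without stated strand counting their reads cannot be told apart.

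Bmp6 and Bmp7, related BMPs of the same subgroup, ranked the 6 libraries in the same order. Bmp6 (chromosome 13, 38345107 to 38500302, plus strand) stood at 8.42 and 4.19 TPM for WT, 19.04 and 6.51 for SOX11f/+ and 10.53 and 20.64 for SOX11f/f. Bmp7 (chromosome 2, 172868012 to 172940321, minus strand) stood at 9.06 and 5.5 TPM for WT, 15.84 and 7.55 for SOX11f/+ and 11.62 and 21.75 for SOX11f/f. For both genes the homozygous libraries lay above wild type with no overlap, and heterozygous replicate 2 lay between the wild type libraries. The homozygous log2 difference from wild type was 1.18 (SE 0.54, limma adjusted p = 0.3) for Bmp6. It was 1.07 for Bmp7 (SE 0.42, limma adjusted p = 0.25). Without homozygous replicate 2 these differences were 0.72 and 0.64. In heterozygous libraries the log2 difference was 0.81 for Bmp6 and 0.57 for Bmp7 (limma adjusted p = 0.52 and 0.55), and without heterozygous replicate 1 it was 0.10 and 0.08. Bmp6 overlaps Txndc5 and 4930579J19Rik on the opposite strand. The sum of 12 meninges and fibroblast markers, which include the collagen genes Col1a1 and Col3a1, was 393.7 and 178.4 TPM for WT, 345 and 306.3 for SOX11f/+ and 146.3 and 754.7 for SOX11f/f. It was highest in homozygous replicate 2, where both ligands peaked, and lowest in homozygous replicate 1, where both ligands were above wild type. The part of meninges in the levels of the 2 ligands was not tested.

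The receptors were the steadiest of the 10 genes. Bmpr1a, the broadly expressed type I receptor (chromosome 14, 34410734 to 34503341, minus strand), stood at 44.29 and 36.91 TPM for WT, 39.43 and 38.11 for SOX11f/+ and 35.72 and 41.14 for SOX11f/f. All genotypes overlapped. Its log2 difference from wild type was -0.06 in heterozygous libraries (95% interval -0.38 to 0.26, limma adjusted p = 0.86). In homozygous libraries it was -0.08, with an interval of -0.39 to 0.24 (limma adjusted p = 0.78). Bmpr1a overlaps Gm17110 on the opposite strand. Bmpr1b, the type I receptor with a more restricted expression (chromosome 3, 141837136 to 142169425, minus strand), stood at 6.41 and 6.56 TPM for WT, 7.92 and 8.87 for SOX11f/+ and 6.46 and 8.01 for SOX11f/f. The heterozygous libraries lay above wild type with no overlap, at a log2 difference of 0.33 (SE 0.18, limma adjusted p = 0.45), and the homozygous libraries overlapped wild type at 0.13 (limma adjusted p = 0.71).

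The Id genes encode inhibitors of bHLH transcription factors and are direct readouts of BMP-activated Smads in many cells. Id1 (chromosome 2, 152736251 to 152737410, plus strand) stood at 118.57 and 85.87 TPM for WT, 89.57 and 91.81 for SOX11f/+ and 94.88 and 120.83 for SOX11f/f. Id3 (chromosome 4, 136143497 to 136145755, plus strand) stood at 224.88 and 166.34 TPM for WT, 182.42 and 185.63 for SOX11f/+ and 179.72 and 231.8 for SOX11f/f. For both, wild type replicate 1 and homozygous replicate 2 were the high libraries, and both floxed genotypes overlapped wild type. The homozygous log2 difference was 0.08 for Id1 (95% interval -0.34 to 0.51, limma adjusted p = 0.82). For Id3 it was also 0.08, with an interval of -0.34 to 0.49 (limma adjusted p = 0.83). In heterozygous libraries it was -0.15 for Id1 and -0.07 for Id3 (limma adjusted p = 0.71 and 0.87). These intervals are compatible with changes of either sign, and the sign of each Id difference from wild type turned when single libraries were left out. Endothelial cells also express both genes. The sum of 10 endothelium markers was 242.6 and 167.1 TPM for WT, 207.4 and 201.9 for SOX11f/+ and 144.9 and 286.4 for SOX11f/f, with its 2 highest values in the same libraries as those of Id1 and Id3. The meninges and fibroblast marker sum had its 2 highest values there too, at 393.7 TPM in wild type replicate 1 and 754.7 in homozygous replicate 2. Endothelium markers were lowest in homozygous replicate 1, and Id1 and Id3 in wild type replicate 2. The part of either cell type in these levels was not tested.

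Msx1, a homeobox gene of the dorsal midline, had the largest differences from wild type of the 10 genes. Msx1 (ENSMUSG00000048450.10, chromosome 5, 37820485 to 37824583, minus strand) stood at 3.75 and 2.59 TPM for WT, 37.93 and 6.9 for SOX11f/+ and 28.76 and 17.67 for SOX11f/f. All 4 libraries with floxed alleles were above wild type. The log2 difference from wild type was 2.51 in homozygous libraries (SE 0.68, limma adjusted p = 0.15) and the ratio of mean TPM was 7.32. In heterozygous libraries it was 2.09 (SE 0.68, limma adjusted p = 0.31). Without heterozygous replicate 1 the heterozygous difference was 0.94, and without heterozygous replicate 2 it was 3.24 (limma adjusted p = 0.0068, from 1 heterozygous library). Msx2, its close relative (chromosome 13, 53466884 to 53473074, minus strand), was low throughout. It stood at 1.31 and 1.07 TPM for WT, 1.18 and 1.2 for SOX11f/+ and 1.56 and 2.44 for SOX11f/f. The homozygous libraries lay above both other genotypes, at a log2 difference of 0.44 from each (limma adjusted p = 0.41 from wild type and 1.0 from heterozygous libraries). Without homozygous replicate 2 the difference from wild type was 0.23.

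Lmx1a encodes a LIM homeodomain factor that specifies roof plate and hem. Lmx1a (ENSMUSG00000026686.14, chromosome 1, 167689237 to 167848741, plus strand) stood at 1.33 and 1.01 TPM for WT, 6.96 and 1.21 for SOX11f/+ and 5.44 and 4.68 for SOX11f/f. As with Bmp4, heterozygous replicate 2 lay between the wild type libraries and the other 3 libraries with floxed alleles were high. The log2 difference from wild type was 1.48 in homozygous libraries (SE 0.55, limma adjusted p = 0.23), with a ratio of mean TPM of 4.33. In heterozygous libraries it was 0.95 (SE 0.55, limma adjusted p = 0.47). With 1 heterozygous library left it was 0.03 without heterozygous replicate 1 and 1.88 without heterozygous replicate 2.

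**Figure D2:**
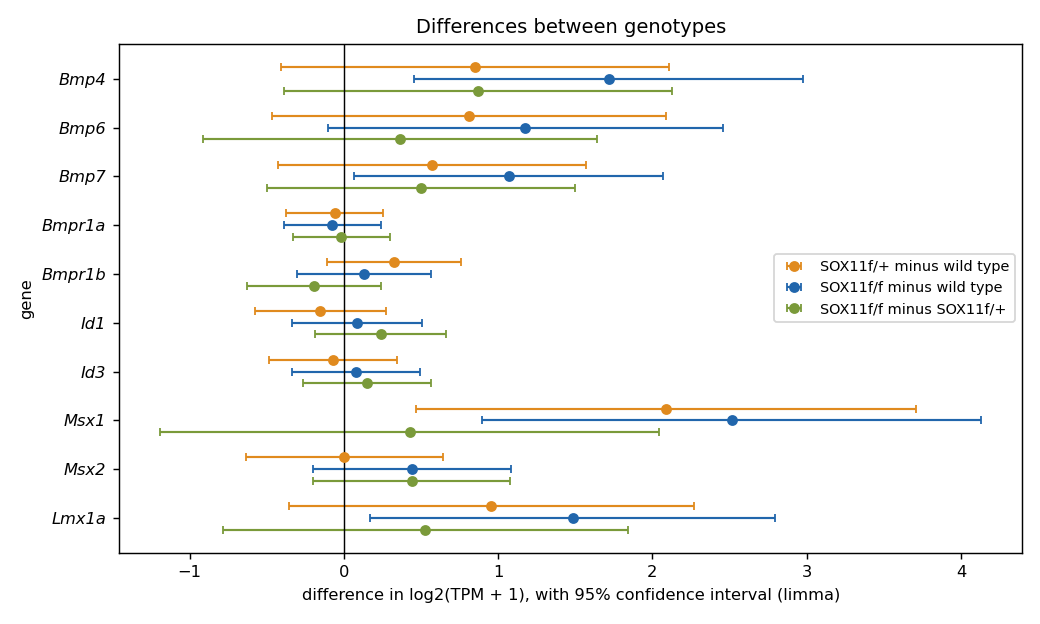
Difference in log2(TPM + 1) between genotypes for each gene, with limma's 95% confidence interval from all 6 libraries. The intervals of Bmp4, Bmp7, Msx1 and Lmx1a for homozygous minus wild type lie above 0 before adjustment, while those of Bmpr1a, Id1 and Id3 span 0 and lie between -0.39 and 0.51.

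Counted together, 0 of the 10 genes passed an adjusted p of 0.05 in limma for heterozygous against wild type, where 0.0344% of 14518 tested genes did. At an unadjusted p under 0.05 there was 1 gene, Msx1, higher (background 14.1% of tested genes in either direction, 6.42% higher). Libraries did not overlap for 2 of 10, Msx1 and Bmpr1b, both higher (background 17.1% higher), and for 0 lower (28.9%). The log2 difference was above 0 for 7 of 10 genes, against 40.2% of all tested. For homozygous against wild type 0 of 10 passed (background 0.0413%). At an unadjusted p under 0.05 there were 4, Bmp4, Bmp7, Msx1 and Lmx1a, each higher (background 18.1% in either direction, 8.35% higher). Homozygous libraries lay wholly above wild type for 6 of 10, Bmp4, Bmp6, Bmp7, Msx1, Msx2 and Lmx1a, where the background is 23.6%, and wholly below for 0 (30.7%). The log2 difference was above 0 for 9 of 10, against 44.8% of all tested. The median log2 difference of the 10 genes was 0.75 against -0.04 over all tested genes, and for heterozygous against wild type it was 0.45 against -0.06. Both comparisons share the wild type libraries. Because the genes were chosen with earlier results of these data known, these shares describe the list and were not tested.

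Homozygous and heterozygous libraries were also compared directly. None of the 10 genes passed in limma (background 0.0138%), 0 had an unadjusted p under 0.05 (background 2.05% in either direction, 1.14% higher), and 2 of 10, Msx2 and Id1, did not overlap, both higher in homozygous libraries (background 15.3% higher, and 13.7% lower against 0 of 10). The log2 difference was above 0 for 8 of 10 genes, against 54.1% of all tested. The log2 difference was 0.87 for Bmp4 (95% interval -0.39 to 2.13), 0.43 for Msx1 (-1.19 to 2.05) and 0.53 for Lmx1a (-0.79 to 1.84). The 2 heterozygous libraries lay far apart for each of these genes, and without heterozygous replicate 2 all 3 differences turned negative.

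The adjusted calls rested on which libraries entered the fit. The pooled spread includes the distance between the heterozygous libraries even for homozygous against wild type. With the libraries of these 2 genotypes only, 3 of 10 genes passed, Bmp4 (limma adjusted p = 0.016), Msx1 (0.0075) and Lmx1a (0.028), at the same log2 differences, and 396 of 14490 genes passed overall. The same 3 passed without heterozygous replicate 1 and without heterozygous replicate 2. They did not pass when either wild type or either homozygous library was left out. Without the 2 libraries with the most Ttr, heterozygous replicate 1 and homozygous replicate 1, 5 of 10 passed for homozygous against wild type, at log2 differences of 1.72 for Bmp4, 1.63 for Bmp6, 1.49 for Bmp7, 2.18 for Msx1 and 1.39 for Lmx1a, with 713 genes passing overall. That fit leaves 1 library in each floxed genotype, assumed to vary like the wild type pair.

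Levels relative to the wild type mean show which libraries carried the differences. Msx1 stood 3.24 above it in heterozygous replicate 1, 2.85 and 2.18 in homozygous replicates 1 and 2, and 0.94 in heterozygous replicate 2. Choroid plexus markers stood at 8.01 in heterozygous replicate 1 and at 7.20 and 2.80 in homozygous replicates 1 and 2. In heterozygous replicate 2 they stood at 0.15, between the wild type libraries (0.38 and -0.38). Ttr made up most of the sum in replicate 1 of both floxed genotypes. Enpp2 made up most of it in WT (48.79 and 27.02 TPM) and in heterozygous replicate 2 (34.25 TPM). The markers lay above wild type without overlap for 11 of 11 tested genes in homozygous and 5 of 11 in heterozygous libraries (backgrounds 23.6% and 17.1%). For those 5, heterozygous replicate 2 was also above both wild type libraries, as with Folr1 (3.43 TPM against 0.4 and 0.2 for WT). The other tested markers overlapped wild type in heterozygous libraries. None of these markers passed an adjusted p of 0.05 in limma, and 3 and 1 were higher at an unadjusted p under 0.05 (backgrounds 8.35% and 6.42%). Ttr, the main secreted product of choroid plexus, stood at 11259 TPM in heterozygous replicate 1, 6420.82 and 184.24 in homozygous replicates 1 and 2 and 4.44 in heterozygous replicate 2, against 3.07 and 2.04 for WT. Of the 12 genes, Kcnj13 alone was listed at 0 in any library, in wild type replicate 2. Bmp4 stood at 5.61 and 5.62 TPM in the homozygous libraries, which differed widely in Ttr. Markers of ependyma and multiciliated cells were high in all 4 libraries with floxed alleles, at 5.57 and 3.93 above the wild type mean in heterozygous and 5.32 and 4.82 in homozygous replicates 1 and 2, and 8 of 8 lay above wild type without overlap in either floxed genotype (backgrounds 17.1% and 23.6%). Of these, Ccdc153 and Tmem212 passed in limma in both, and Ccdc153, for instance, was higher in SOX11f/f libraries by a log2 difference of 5.65 (limma adjusted p = 0.0018). In wild type Tmem212 was listed at 0 in both libraries and Ccdc153 in replicate 2. Microglia markers stood 0.56 to 1.16 above the wild type mean in the floxed genotypes and astrocyte markers 0.24 to 0.63, each with a log2 difference above 0 for 8 of 8 genes in homozygous libraries (background 44.8%). The part of these cell types, and of the meninges markers above, in the BMP and midline results was not tested.

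**Figure D3:**
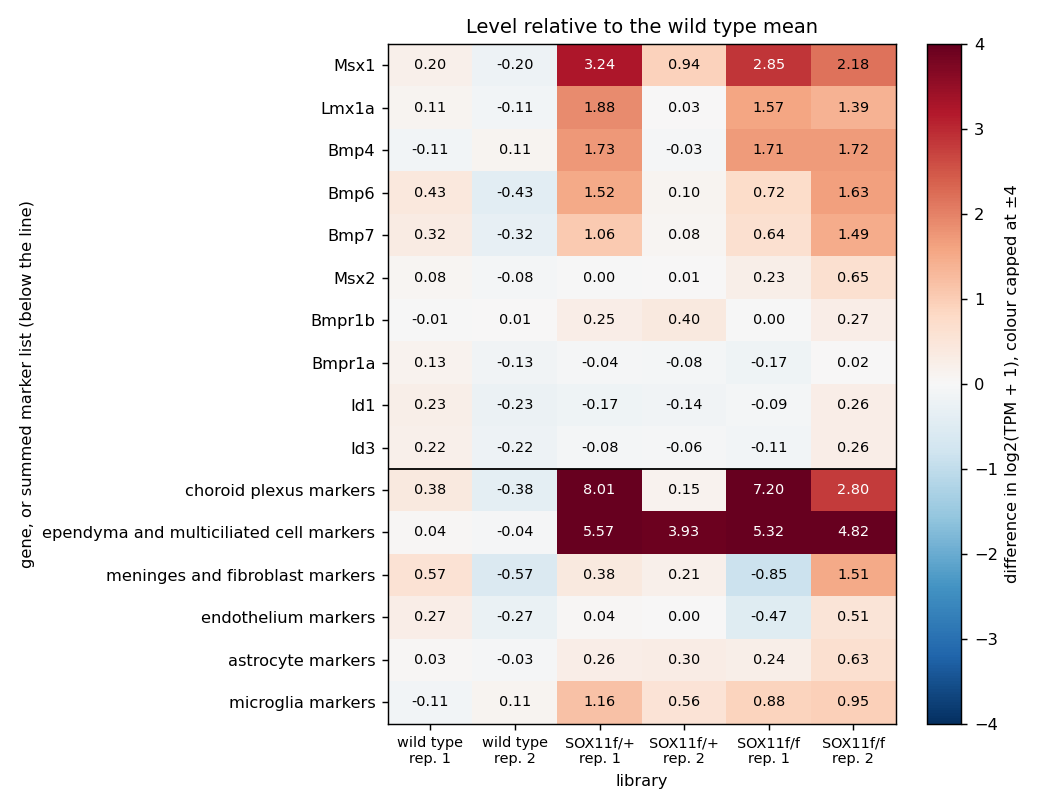
Difference in log2(TPM + 1) from the wild type mean in each library, for the 10 genes and, below the line, for the summed TPM of 6 marker lists (number in each cell, colour capped at 4). Msx1, Lmx1a and Bmp4 are high in the same 3 libraries, in which choroid plexus markers stand 2.80 or more above wild type.

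Across the 6 libraries some of the genes varied together by Pearson's r of log2(TPM + 1), given as a description since these libraries share genotype and tissue makeup. Bmp6 and Bmp7 had r = 0.99, Id1 and Id3 0.98, and Lmx1a had 0.97 with both Bmp4 and Msx1. Bmp6 and Bmp7 had r from 0.78 to 0.87 with Bmp4, Msx1 and Lmx1a. Id3 had r of 0.01 with Msx1 and 0.07 with Bmp4, but 0.51 with Bmp6, 0.57 with Bmp7, 0.69 with Msx2 and 0.85 with Bmpr1a. The genes most like each were taken from 11968 genes averaging 5 TPM or more. For Msx1 they were Dyx1c1 (r = 0.9993), a factor of ciliary dynein assembly, Pcp4l1 (0.9987) and 1810037I17Rik (0.9976). For Lmx1a they were Aifm3 (0.9996), Tbcel (0.9969) and Fam117a (0.9906), and for Bmp4 2410015M20Rik (0.9936), the ciliary kinesin gene Kif19a (0.9897) and the tubulin glycylase gene Ttll3 (0.9863). Bmp6 was most like Postn (0.9979), an extracellular matrix protein of fibroblasts, Ginm1 (0.9967) and Antxr1 (0.9925), and Bmp7 most like Lrp4 (0.9886), Antxr1 (0.9875) and Fam114a1 (0.9875). Id3 was most like Plpp2 (0.9978), the midline zinc-finger gene Zic1 (0.9906) and Dkk3 (0.9904), and Id1 most like Akt2 (0.9948), Rab34 (0.9879) and Plpp2 (0.9873). Over only 6 libraries, values this high arose for every one of the 10 genes, also for the steady ones, such as Derl1 with Bmpr1a (0.9921), Capzb with Bmpr1b (0.9877) and Plec with Msx2 (0.9868).

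The rest of the pathway was described from 6 lists of 73 genes, of which 59 were tested and 0 passed an adjusted p of 0.05 in limma in any comparison. Of 36 differences from wild type with the smallest p in their lists, 28 moved by over 1.5 times when 1 library was left out, and 0 changed sign. Of 15 other BMP and GDF ligands 7 were tested. For homozygous against wild type 0 had an unadjusted p under 0.05, with a median log2 difference of -0.11. Bmp5, of the same subgroup as Bmp6 and Bmp7, stood at 2.06 and 1.04 TPM for WT, 1.88 and 1.82 for SOX11f/+ and 1.55 and 5.57 for SOX11f/f (0.71, limma adjusted p = 0.44). Gdf10, a divergent family member, stood at 30.15 and 21.24 TPM for WT, 15.36 and 17.76 for SOX11f/+ and 20.24 and 21.25 for SOX11f/f. Its log2 differences from wild type were -0.59 in heterozygous libraries (limma adjusted p = 0.3) and -0.28 in homozygous ones (0.45). Gdf5, best known from joints, stood at 27.69 and 14.58 TPM for WT, 17.13 and 10.9 for SOX11f/+ and 11.28 and 17.01 for SOX11f/f. Its log2 differences of -0.53 and -0.51 (limma adjusted p = 0.52 and 0.46) were -0.085 and -0.0671 without wild type replicate 1. Gdf11 differed by -0.24 in heterozygous libraries (limma adjusted p = 0.56), or by -0.0901 without heterozygous replicate 1. Gdf7, a roof plate ligand, was at 0.42 TPM or less in every library.

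Other receptors and coreceptors stood lower more often than higher. Of 9 tested, only 2 had a log2 difference above 0 in heterozygous and 1 in homozygous libraries, against 40.2% and 44.8% of all tested genes, and 7 of 9 homozygous pairs lay wholly below wild type (background 30.7%). Neo1, a receptor of RGM proteins that also binds BMPs, stood at 159.0 and 142.37 TPM for WT, 113.55 and 122.52 for SOX11f/+ and 136.75 and 119.86 for SOX11f/f. Its log2 differences were -0.35 and -0.23 (limma adjusted p = 0.3 and 0.31). Acvr2a, a type II receptor, differed by -0.30 and -0.35, Rgmb, a BMP coreceptor, by -0.29 in heterozygous libraries, and Acvr2b, another type II receptor, by -0.44 in homozygous libraries, with limma adjusted p from 0.27 to 0.39. Of 12 Smads and their regulators, 0 had an unadjusted p under 0.05 in either comparison with wild type. The shared partner Smad4 averaged 61.17 ± 11.6 TPM for WT, 50.2 ± 6.61 for SOX11f/+ and 46.72 ± 2.63 for SOX11f/f (SD, n = 2 each). Smad1, which encodes a BMP Smad, averaged 59.38 ± 16.4, 44.06 ± 5.45 and 45.35 ± 5.88 TPM in the same order. Smad9 (log2 difference 0.47 and 0.51), the ubiquitin ligase gene Smurf1 (-0.28 in heterozygous) and the Smad-binding repressor gene Zeb2 (-0.30 in homozygous libraries) had limma adjusted p from 0.28 to 0.43.

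Among secreted antagonists and modulators, 13 of 16 were tested and 1 had an unadjusted p under 0.05 for homozygous against wild type. This was Grem1, a BMP antagonist, at 1.81 and 2.92 TPM for WT, 3.05 and 5.2 for SOX11f/+ and 8.07 and 4.03 for SOX11f/f (log2 difference 1.03 in homozygous libraries, SE 0.37, limma adjusted p = 0.22, and 0.59 in heterozygous ones). Sostdc1, a BMP and Wnt antagonist, stood at 2.72 and 4.91 TPM for WT, 46.57 and 4.15 for SOX11f/+ and 28.92 and 5.99 for SOX11f/f. Its 2 high libraries are those with the most Ttr. Chrdl1, which encodes a chordin-like antagonist, had log2 differences of 0.33 and 0.37. Of other target genes Id4 stood at 40.64 and 31.56 TPM for WT, 59.61 and 37.74 for SOX11f/+ and 54.28 and 58.68 for SOX11f/f (0.64 in homozygous libraries, SE 0.22, limma adjusted p = 0.21, and 0.40 in heterozygous ones). Id2 stood at 300.64 and 207.88 TPM for WT, 170.91 and 205.92 for SOX11f/+ and 156.79 and 220.02 for SOX11f/f (-0.43 in homozygous libraries, limma adjusted p = 0.35, and -0.41 in heterozygous ones). The Id genes thus had differences of both signs, and none passed. The Notch and BMP target Hey1 had log2 differences of 0.21 and 0.29. Of 7 other target genes 6 were tested. Homozygous libraries lay wholly above wild type for 4 and wholly below for 0 (backgrounds 23.6% and 30.7%). The median log2 difference was 0.29 in homozygous and 0.18 in heterozygous libraries, against -0.04 and -0.06 over all tested genes.

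Of the other hem and roof plate genes, 12 of 14 were tested, with a median log2 difference of 0.45 for homozygous and 0.09 for heterozygous against wild type. At an unadjusted p under 0.05, 4 were higher in homozygous libraries (Rspo1, Rspo2, Rspo3 and Wnt2b) and 1 was lower (Wnt5a), where the shares of all tested genes are 8.35% higher and 18.1% in either direction. The R-spondin genes encode secreted enhancers of Wnt signalling. Their homozygous log2 differences were similar, but their levels and order of libraries differed. Rspo1 stood at 3.61 and 3.17 TPM for WT, 7.94 and 3.05 for SOX11f/+ and 6.78 and 8.88 for SOX11f/f (log2 difference 1.0 in homozygous libraries, limma adjusted p = 0.24). Rspo2 stood at 7.76 and 9.14, 16.08 and 9.8, and 17.27 and 14.34 TPM (0.83 in homozygous, limma adjusted p = 0.17, and 0.53 in heterozygous libraries). Rspo3 stood at 5.58 and 4.75, 10.84 and 6.69, and 12.14 and 8.24 TPM (0.84, limma adjusted p = 0.2, and 0.63). In each, heterozygous replicate 1 was higher than heterozygous replicate 2, as for Bmp4 and Lmx1a. Wnt5a, a noncanonical Wnt ligand of the hem, went the other way, at 43.3 and 32.61 TPM for WT, 24.22 and 26.38 for SOX11f/+ and 23.08 and 30.45 for SOX11f/f (-0.55 in heterozygous, limma adjusted p = 0.31, and -0.49 in homozygous libraries). The hem marker Wnt3a, too low to be tested, was at 0 in each WT library, 1.45 and 0.11 TPM for SOX11f/+ and 0.56 and 0.9 for SOX11f/f. Lmx1b, the relative of Lmx1a, was at 0.49 TPM or less throughout.

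**Figure D4:**
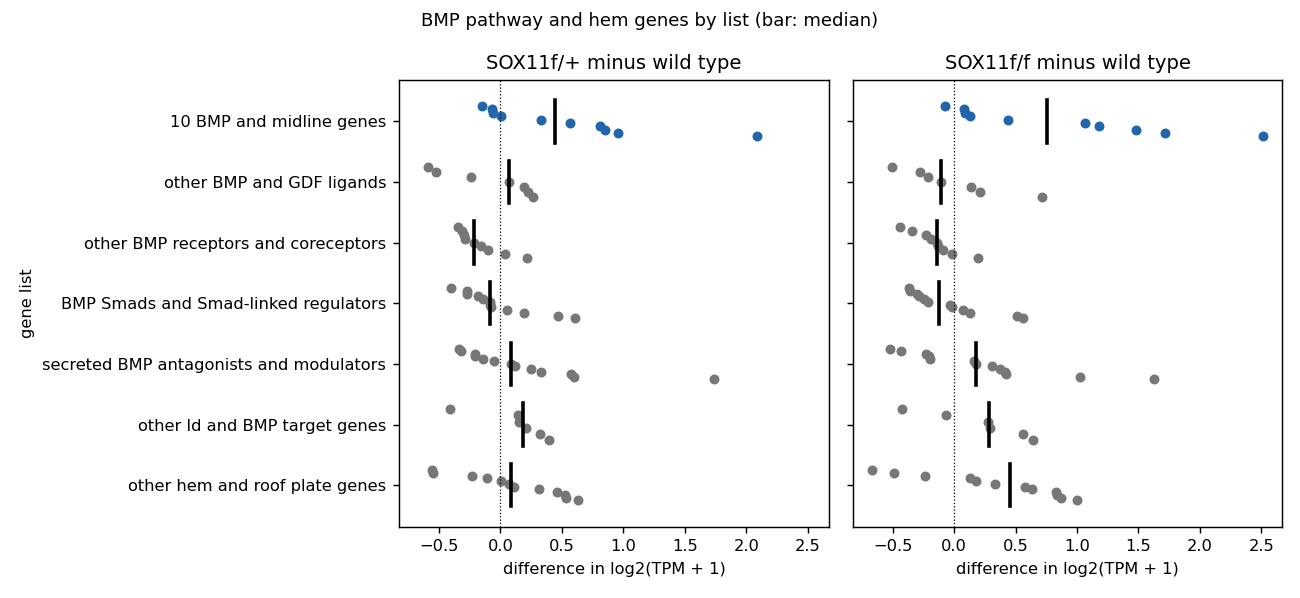
Difference in log2(TPM + 1) from wild type for each tested gene of the 10 BMP and midline genes and of 6 lists of related genes (points), with the median of each list as a bar, for heterozygous (left) and homozygous libraries (right). For homozygous libraries the medians are 0.75 for the 10 genes, 0.45 for other hem and roof plate genes and -0.14 for other receptors and coreceptors.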

How the data were processed

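Poly(A) RNA of 6 libraries was sequenced, and the authors deposited 1 table of TPM values for 35274 genes with a column per library. TopHat 2.0.11 alignment to mm10 and Cufflinks 2.2.1 for expression differences are named per the labels (design text), whereas FastQC and RSEM, without a version, are named per the submitters' processing notes. Which of them produced the TPM values, and how strand and multi-mapped reads were handled, was not stated. TPM values share a fixed total, so a very abundant transcript lowers the others in its library.

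Values were used as log2(TPM + 1). The 14518 genes averaging 1 TPM or more were fitted with limma 3.58.1 (R 4.3.3, eBayes with trend) on all 6 libraries, 1 coefficient for each genotype (3 residual degrees of freedom). P-values were adjusted by Benjamini-Hochberg over all tested genes, with a threshold of 0.05. An exact permutation test of 2 against 2 libraries cannot reach that threshold, so none is given. Tables were made with pandas 2.3.3. The genes and lists were chosen with earlier results of these data known. All 10 genes, genes past the threshold and, per pathway list and comparison with wild type, the 3 with the smallest p were named, except 1 gene not reported here. Gdf7, Wnt2b, Wnt3a, Lmx1b and the dentate lineage genes were named after their values were seen. Alternatives were another pseudocount, filters, rescaling, the replicate block, eBayes without trend, fewer genotypes and libraries left out.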

Additional observations from a re-analysis of the deposited data

How the results depend on the processing

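Under a pseudocount of 0.1, no filter, a mean of at least 5 TPM (which drops Bmp4, Lmx1a and Msx2), median-of-ratios rescaling, the replicate block and eBayes without a trend, 0 of the 10 genes passed in any comparison and no sign turned. For homozygous against wild type 3 passed in a fit of those genotypes alone and 5 without the 2 Ttr-rich libraries (heterozygous and homozygous replicate 1), and leaving out single libraries gave 0 to 3. For heterozygous against wild type leaving out single libraries gave 0 to 3. For homozygous against heterozygous 1 gene, Bmp4, passed without the 2 Ttr-rich libraries. In all, of 411 values of the 10 genes under alternatives, 369 kept sign and side of the threshold, 18 newly passed and 24 changed sign.

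Counts over all genes moved more. For heterozygous against wild type (5 genes), 49 passed with a pseudocount of 0.1, 1 unfiltered, 9 with the replicate block and 210 without the 2 Ttr-rich libraries, and 3 to 391 with single libraries left out. For homozygous against wild type (6), these were 149, 3, 283 and 713, with 396 for these 2 genotypes only and 3 to 395 with single libraries left out. For homozygous against heterozygous (2), there were 1 with no filter, 1 with eBayes without a trend, 45 without the 2 Ttr-rich libraries, and 1 to 5 with single libraries left out. Among pathway and marker genes (2 called for heterozygous against wild type, Ccdc153 and Tmem212), 5 passed with a pseudocount of 0.1, 0 unfiltered, 8 without the 2 Ttr-rich libraries and 0 to 19 with single libraries left out. For homozygous against wild type (2), these were 8, 1, 42 and 1 to 18, with 11 under the replicate block and 18 with these 2 genotypes only. For homozygous against heterozygous (0), 5 passed without the 2 Ttr-rich libraries. The causes were not tested, beyond fewer libraries or genes entering a fit.

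Signs turned only with libraries left out. Without the 2 Ttr-rich libraries, the log2 difference was -0.0316 for Bmp4 (heterozygous minus wild type) and, for Bmpr1a, 0.0243 (homozygous minus wild type) and 0.11 (homozygous minus heterozygous). Over single libraries left out, heterozygous minus wild type ran from -0.0316 to 1.73 for Bmp4, -0.19 to 0.0689 for Bmpr1a, -0.077 to 0.0813 for Msx2, -0.38 to 0.0778 for Id1 and -0.29 to 0.14 for Id3. Homozygous minus wild type ran from -0.20 to 0.0533 for Bmpr1a, -0.0048 to 0.27 for Bmpr1b, -0.15 to 0.32 for Id1 and -0.14 to 0.29 for Id3. Homozygous minus heterozygous ran from -0.0119 to 1.75 for Bmp4, -0.34 to 1.07 for Bmp6, -0.11 to 0.0837 for Bmpr1a, -0.72 to 1.58 for Msx1, -0.0339 to 0.33 for Id3 and -0.40 to 1.45 for Lmx1a.

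The labels do not say whether libraries with the same replicate number share anything. Deviations of same-numbered libraries from their genotype means correlated at 0.212 for wild type and heterozygous, -0.088 for wild type and homozygous and 0.345 for heterozygous and homozygous libraries, and the block changed no call of the 10 genes. Over all genes, the block raised the calls for homozygous against wild type from 6 to 283. Mature excitatory neuron markers summed lower in replicate 1 than in replicate 2 of each genotype. These sums were 559.1 and 976.3 TPM for WT, 576.3 and 1096 for SOX11f/+ and 970.5 and 1432 for SOX11f/f. Choroid plexus sums ran the other way, at 58.67 and 34.23 TPM for WT, 11810 and 50.02 for SOX11f/+ and 6761 and 317.5 for SOX11f/f. So did ependyma and multiciliated cell sums, at 7.29 and 6.81, 381.8 and 121.3, and 321.3 and 226.1 TPM. Endothelium and meninges sums had no such shared order. The main fit did not include the block. With 2 libraries per genotype and unknown depth, differences of genes near 1 TPM are the least certain.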
